A study of Mus musculus with 16 samples.

Results

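The genes of the renin-angiotensin system were described in fat cells and their precursors from mice raised under early life stress or undisturbed. The members were 9 of the 54532 genes of the deposited count and FPKM tables. They are Agt, Ace, Enpep, Lnpep, Agtr1a, Agtr1b, Agtr2, Mas1 and Atp6ap2. They were chosen by name, with earlier results of these data known. In this system the protein angiotensinogen is cut by renin to angiotensin I, which angiotensin-converting enzyme turns into angiotensin II. Angiotensin II acts through AT1 and AT2 receptors, which are known for opposing effects on vessel tone and growth, and aminopeptidases trim it to shorter peptides. Adipose tissue is known as a site of angiotensinogen synthesis outside the liver.

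RNA was sequenced from gonadal white fat of female C57BL/6 mice, a standard inbred strain. In the stress groups, pups were taken from the dam daily on postnatal days 2 to 16 and weaned on day 17, while control pups were left undisturbed and weaned on day 21. The fat was digested with collagenase and split by centrifugation and filtration into floating mature adipocytes and a stromal vascular fraction, and magnetic cell sorting served to part adipocyte-lineage cells from other cells. The sort antibodies and the ages of the mice were not given in the sources used here. There were 3 stress and 3 control libraries of mature adipocytes on a high-fat diet, 4 stress and 4 control libraries of preadipocytes on the high-fat diet, and 1 stress and 1 control library of preadipocytes on a low-fat diet. Mature adipocytes on the low-fat diet were not analysed here. No label states that replicate libraries are different mice, so all p-values rest on library-to-library spread, part or all of which may be technical.

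Library totals ran from 14182130 to 23368821 counts. Mature adipocyte libraries held 15344 to 20964 detected genes, and preadipocyte libraries 23004 to 26053. Control adipocyte libraries 1 and 3 sampled rare transcripts least well: their ratio of genes with few counts (1 to 5) to genes with slightly more (6 to 15) was 1.15 and 0.637, against 1.55 to 2.23 in the other 14 libraries, and they are called the low-complexity libraries. Libraries 1 and 3 of the control high-fat preadipocytes held almost the same counts, with 21.4% of genes differing, against at least 50.5% in the other 17 pairs of replicate libraries. The pair counts as 1 sample, which makes n 3 for the control high-fat preadipocytes. Against high-fat preadipocytes, the mature fraction was higher in all 12 adipocyte markers, with log2 fold changes of 4.77 for Fabp4, 7.27 for Cidec and 8.13 for Cfd. It was lower in all 12 progenitor markers, with -4.17 for Col3a1, -3.39 for Col1a1 and -5.62 for Fbn1 (these 6 had adjusted p-values between 9.94e-08 and 4.12e-06 in edgeR's quasi-likelihood test). Summed over each list, adipocyte markers reached 7751 to 29327 FPKM in mature adipocytes and 131 to 260 FPKM in high-fat preadipocytes, and progenitor markers 168 to 421 FPKM in mature adipocytes and 1857 to 3976 FPKM in high-fat preadipocytes. The fractions therefore carried the markers of their labels, and each also held a low level of the other's. In bulk RNA, fewer cells of a type and less RNA per cell cannot be told apart.

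The members lie apart in the mouse genome (GRCm38, spans as deposited). Agt is at chr8:124556534-124569706 on the minus strand (ENSMUSG00000031980) and Ace at chr11:105967945-105989964 on the plus strand (ENSMUSG00000020681). Enpep is at chr3:129269175-129332720 (ENSMUSG00000028024) and Lnpep at chr17:17521410-17625050 (ENSMUSG00000023845), both on the minus strand. Of the receptor genes, Agtr1a is at chr13:30336441-30382867 on the plus strand (ENSMUSG00000049115), and Agtr1b at chr3:20314473-20367177 (ENSMUSG00000054988) and Mas1 at chr17:12841079-12868143 (ENSMUSG00000068037) are on the minus strand. Agtr2 at chrX:21484544-21489164 (ENSMUSG00000068122) and Atp6ap2 at chrX:12587801-12617049 (ENSMUSG00000031007) are on the plus strand of the X chromosome.

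Agt was higher and Ace lower in mature adipocytes than in preadipocytes, and both were detected in every library of both fractions. Angiotensinogen (Agt), the precursor of all angiotensins, was the member with the highest mean level in mature adipocytes, at 61.5 ± 40.6 FPKM (SD, n = 6), and angiotensin-converting enzyme (Ace) was the one with the highest mean level in high-fat preadipocytes, at 53.1 ± 18.1 FPKM (SD, n = 7). Of the 7 members with enough counts to test, 1 was higher and 5 were lower in mature adipocytes than in preadipocytes on the high-fat diet, in a fit where 61.3% of all 16679 genes tested were called, 26.4% higher and 35% lower. The 7 members had a median log2 fold change of -1.40, against -0.25 over all genes tested. With 7 genes, 1 gene more or less called moves the members' share by a wide margin, and no test of the list was made.

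The promoters of Agt and Ace are shown because these members had the highest mean FPKM in mature adipocytes and in high-fat preadipocytes, respectively. Each is the 250 bases upstream of a RefSeq transcription start (GRCm38.p6), written 5′ to 3′ on the gene's strand. Capitals mark every match to TATAAA, the core of a TATA box, or to GGGCGG, a GC box of the Sp1 type, on either strand, and the matches in GGGCGGGCGG overlap by 2 bases. The Agt window is chr8:124569707-124569956 on the minus strand, directly upstream of the gene's deposited span. The Ace window is chr11:105967698-105967947 on the plus strand, at the upstream start of the gene.
Agt: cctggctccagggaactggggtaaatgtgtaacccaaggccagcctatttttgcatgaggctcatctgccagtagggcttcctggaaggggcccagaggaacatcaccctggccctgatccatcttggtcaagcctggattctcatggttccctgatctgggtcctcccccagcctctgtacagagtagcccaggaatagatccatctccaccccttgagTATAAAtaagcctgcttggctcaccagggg
Ace: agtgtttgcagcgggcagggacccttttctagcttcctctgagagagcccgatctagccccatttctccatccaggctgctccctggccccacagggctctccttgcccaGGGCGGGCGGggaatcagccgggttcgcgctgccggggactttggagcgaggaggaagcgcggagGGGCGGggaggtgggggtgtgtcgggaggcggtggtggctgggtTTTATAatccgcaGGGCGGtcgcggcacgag

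The Agt window held 1 TATAAA and no GGGCGG, with 55.6% G and C. The Ace window shown held 4 GGGCGG and 1 TATAAA in reverse, with 67.2% G and C. A second RefSeq start of Ace, with the window chr11:105974939-105975188, held no match to either motif, with 58.0% G and C. Among 32851 RefSeq promoters of the same length, 12.4% held TATAAA and 32.7% held GGGCGG, so neither motif is rare. RefSeq promoters were found for 8 of the 9 members, with 9 windows, of which 4 held TATAAA and 3 held GGGCGG. A match is a run of letters and not a shown binding site.

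Agt was far higher in the mature fraction. It stood at 43.8, 73.6 and 18.9 FPKM in stress adipocyte libraries 1 to 3 and at 100.9, 19.0 and 112.5 FPKM in control adipocyte libraries 1 to 3. In high-fat preadipocytes it stood at 2.27, 2.70, 2.40 and 1.46 FPKM in stress libraries 1 to 4 and at 1.21, 2.81, 0.865 and 5.73 FPKM in control libraries 1 to 4. Every mature adipocyte library was above every preadipocyte library, and within each fraction the libraries themselves spread widely. The difference was 4.48 ± 0.46 on the log2 scale (SE), a 22.2-fold higher level in mature adipocytes, with an adjusted p of 1.72e-06 in edgeR's quasi-likelihood test with Benjamini-Hochberg adjustment, the test used for all adjusted p-values of this comparison.

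**Figure D1:**
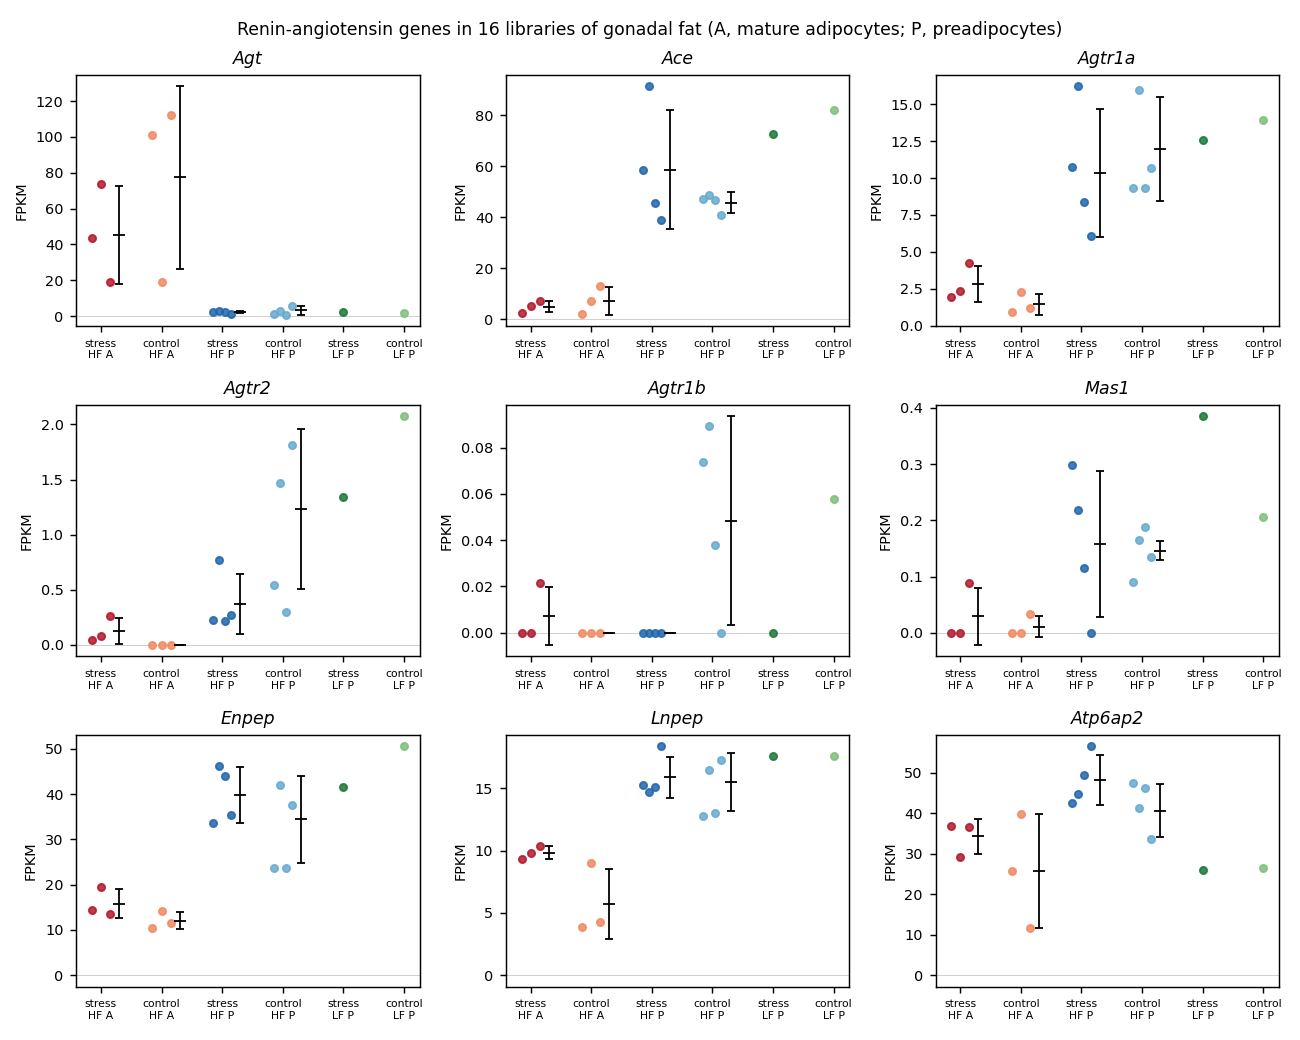
Deposited FPKM (vertical axis, linear) of the 9 members in every library, by group; points are libraries, and bars show the mean and SD of groups with more than 1 sample, with the near-identical control preadipocyte libraries counted as 1. Agt ranged from 18.9 to 112.5 FPKM in mature adipocytes (A) and from 0.865 to 5.73 FPKM in high-fat preadipocytes (P), while Ace ranged from 1.92 to 12.9 FPKM in mature adipocytes and from 38.9 to 91.6 FPKM in high-fat preadipocytes.

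Agt was also set beside adiponectin (Adipoq), a hormone made by mature fat cells. Agt amounted to 1.56 to 3.19 FPKM for each 100 FPKM of Adipoq in the 6 adipocyte libraries, which themselves ranged from 914 to 5044 FPKM of Adipoq. In the 10 preadipocyte libraries, Adipoq was between 0.788 and 34.4 FPKM and Agt amounted to 4.70 to 185.6 FPKM for each 100 of Adipoq. This comparison was chosen after the values were seen and rests on 1 marker, and the part of adipocyte RNA in the preadipocyte levels of Agt was not tested.

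**Figure D2:**
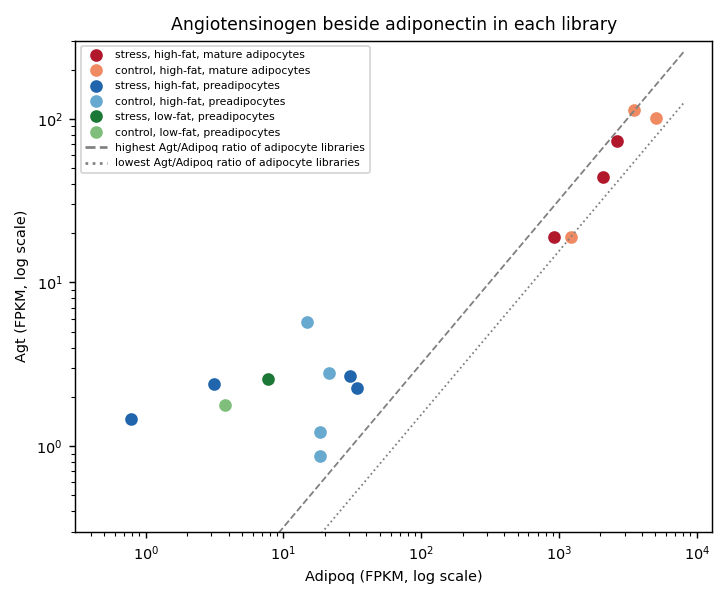
Agt (vertical axis) against Adipoq (horizontal axis) in FPKM, both on log scales, 1 point per library; the lines carry the highest and lowest Agt to Adipoq ratio of the 6 mature adipocyte libraries. The 6 mature adipocyte libraries lie at 914 FPKM of Adipoq or more, and the 10 preadipocyte libraries at 34.4 FPKM or less, with 4.70 to 185.6 FPKM of Agt for each 100 of Adipoq.

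The genes whose pattern across libraries was most like that of Agt were named from 21109 genes by Pearson's r of log2 CPM, as a description with no test. Within the 6 mature adipocyte libraries these were Psmd8 (r = 0.998), Gm11518 (r = 0.998) and Slc25a23 (r = 0.996), over points that share the low-complexity libraries. Within the preadipocytes, with 9 samples after joining the near-identical pair, they were Sept11 (r = 0.923), Zcchc12 (r = 0.865) and Ilkap (r = 0.862).

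Ace, which makes angiotensin II and also breaks down bradykinin, ran the other way. It stood at 2.6, 5.03 and 7.07 FPKM in stress adipocyte libraries 1 to 3 and at 1.92, 7.0 and 12.9 FPKM in control adipocyte libraries 1 to 3. In high-fat preadipocytes it stood at 58.7, 91.6, 45.7 and 38.9 FPKM in stress libraries 1 to 4 and at 47.4, 48.9, 46.8 and 41.0 FPKM in control libraries 1 to 4. The ranges did not overlap, and Ace was 8.78-fold lower in mature adipocytes, with a log2 fold change of -3.13 ± 0.40 (SE) and an adjusted p of 1.08e-05. The ratio of Agt to Ace in FPKM ran from 2.67 to 52.5 in the 6 mature adipocyte libraries and from 0.0185 to 0.140 in the 10 preadipocyte libraries, so Agt was above Ace in every adipocyte library and below it in every preadipocyte library.

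Enpep and Lnpep, the membrane aminopeptidases of the list, were lower in mature adipocytes by a smaller factor. Enpep, or aminopeptidase A, removes the first residue of angiotensin II. It stood at 14.4, 19.5 and 13.5 FPKM in stress and 10.4, 14.2 and 11.6 FPKM in control adipocyte libraries, and at 33.6, 46.2, 44.0 and 35.4 FPKM in stress and 23.6, 42.0, 23.7 and 37.6 FPKM in control high-fat preadipocyte libraries. Again no adipocyte library reached the lowest preadipocyte library, and the mature fraction was 2.63-fold lower (log2 fold change -1.40 ± 0.17 SE, adjusted p of 8.96e-06). Lnpep encodes the insulin-regulated aminopeptidase that travels with the glucose transporter of fat cells and is also the binding site of angiotensin IV.

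Lnpep stood at 9.32, 9.84 and 10.4 FPKM in stress and 3.86, 8.97 and 4.28 FPKM in control adipocyte libraries, and at 15.3, 14.8, 15.1 and 18.4 FPKM in stress and 12.8, 16.5, 13.0 and 17.2 FPKM in control high-fat preadipocyte libraries. It in mature adipocytes was 2.02-fold lower (log2 fold change -1.01 ± 0.23 SE, adjusted p of 0.00168), and the ranges did not overlap. The lowest values were those of the low-complexity libraries. Without both, the log2 fold change was -0.58, still past the threshold.

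Agtr1a encodes the AT1 receptor, through which angiotensin II raises vessel tone and aldosterone, and it was the only one of Agtr1a, Agtr1b, Agtr2 and Mas1 above 1 FPKM in every preadipocyte library. It stood at 1.93, 2.35 and 4.24 FPKM in stress and 0.922, 2.27 and 1.18 FPKM in control adipocyte libraries, and at 10.7, 16.2, 8.35 and 6.07 FPKM in stress and 9.32, 16.0, 9.29 and 10.6 FPKM in control high-fat preadipocyte libraries. The ranges did not overlap, and the mature fraction was 5.10-fold lower (log2 fold change -2.35 ± 0.35 SE, adjusted p of 4.10e-05). Rodents carry a near-identical second gene, Agtr1b, and how shared reads were assigned was not given in the sources used here, so the split between the pair is uncertain. Agtr1b had 0, 0 and 1 counts in stress and 0, 0 and 0 counts in control adipocyte libraries, 0 counts in all 4 stress high-fat preadipocyte libraries, and 4, 4, 2 and 0 counts in control high-fat preadipocyte libraries 1, 2, 3 and 4. These counts are at or near the floor of 3 counts that a 0 allows, and Agtr1b was not tested.

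The AT2 receptor gene Agtr2, whose receptor is abundant in fetal tissue and often opposes AT1, was low everywhere. It had 3, 4 and 19 counts in stress and 0, 0 and 0 counts in control adipocyte libraries, against 17, 54, 14 and 20 counts in stress and 46, 102, 24 and 137 counts in control high-fat preadipocyte libraries. Taken over the control libraries, with a floor of 3 counts for the group, Agtr2 came out 67.2-fold lower in mature adipocytes than in preadipocytes. The control adipocyte group holds both low-complexity libraries, which sampled rare transcripts least well. This factor covers counting error only and is not a firm lower bound. In the fit over both treatments Agtr2 was lower in mature adipocytes, with an adjusted p of 0.0124 in edgeR's quasi-likelihood test. That call was lost in edgeR's quasi-likelihood test within the stress libraries alone (log2 fold change -1.33, adjusted p of 0.190) and without both low-complexity libraries (-2.20, adjusted p of 0.0793).

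Mas1, the receptor of the vasodilator peptide that opposes angiotensin II, was too low to test between the fractions. It had 0, 0 and 5 counts in stress and 0, 0 and 1 counts in control adipocyte libraries, against 18, 12, 6 and 0 counts in stress and 6, 9, 12 and 8 counts in control high-fat preadipocyte libraries. The gene lies opposite Airn, an antisense transcript with up to 622 counts, and without a stated strand setting reads of the pair cannot be told apart. The overlapping genes of Ace, Agtr1a, Enpep and Lnpep had at most 32 counts in any library.

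Atp6ap2, which encodes the (pro)renin receptor and is also an accessory protein of the vacuolar proton pump present in most cells, differed least. It stood at 36.9, 29.1 and 36.6 FPKM in stress and 25.8, 39.8 and 11.7 FPKM in control adipocyte libraries, against 42.5, 44.6, 49.3 and 56.4 FPKM in stress and 47.5, 41.3, 46.2 and 33.7 FPKM in control high-fat preadipocyte libraries. The ranges overlapped, and the log2 fold change of -0.54 (95% interval -1.06 to -0.024) did not pass the threshold (adjusted p of 0.0651). It passed in DESeq2, with the other size factors, in both limma fits and without control adipocyte library 2, so its call depends on the method.

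Over the tested members, 5 of 7 had ranges that did not overlap between the fractions, 1 higher and 4 lower in mature adipocytes, against 38.9% of all genes tested, 17% higher and 21.9% lower. Without both low-complexity libraries 5 of the 7 were called, the exception beside Atp6ap2 being Agtr2. The calls of Agt, Ace, Enpep, Lnpep and Agtr1a held in all 26 alternatives run for this comparison.

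Other cell types also differed between the fractions. Of 12 endothelial markers, 10 were higher and 1 lower in mature adipocytes, Cdh5 by 2.53, Pecam1 by 2.14 and Cldn5 by 2.99 on the log2 scale, and their summed level was 219 to 851 FPKM in mature adipocytes against 50.9 to 245.6 FPKM in high-fat preadipocytes. Of 12 mural markers, genes of the smooth muscle cells and pericytes of vessels, 6 were higher and 1 lower, with Acta2 at 2.88 and Mcam at 3.70 higher and Pdgfrb at -2.35, and their summed level was 189 to 554 FPKM in mature adipocytes against 58.2 to 189.6 FPKM in high-fat preadipocytes. Other lists were lower in mature adipocytes. Of 10 mesothelial markers 10 were lower, with a median log2 fold change of -3.20 and a summed level of 12.6 to 93.3 FPKM in mature adipocytes against 37.6 to 618 FPKM in high-fat preadipocytes. Of 10 T and NK cell markers 7 were lower and 1 higher, and of 8 B cell markers 6 were lower and 1 higher. Of 12 macrophage markers 1 was higher and 1 lower. The mitochondrial share of counts was 6.24 to 11.2% in mature adipocytes and 1.35 to 2.42% in all preadipocytes. The part of these cell types and of the mitochondrial share in the members' levels was not tested.

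Ranked by FPKM within mature adipocytes, Agt was followed by Atp6ap2 at 30.0 ± 10.4, Enpep at 13.9 ± 3.15, Lnpep at 7.77 ± 2.91, Ace at 6.09 ± 3.98 and Agtr1a at 2.15 ± 1.18 FPKM (SD, n = 6). Neighbours overlapped in range except Enpep against Lnpep and Agtr1a against Agtr2, which averaged 0.0635 ± 0.103 FPKM. Within high-fat preadipocytes, Ace was followed by Atp6ap2 at 44.9 ± 7.08, Enpep at 37.5 ± 7.63, Lnpep at 15.7 ± 1.80, Agtr1a at 11.0 ± 3.79, Agt at 2.63 ± 1.51 and Agtr2 at 0.741 ± 0.653 FPKM (SD, n = 7). There the ranges parted between Enpep and Lnpep and between Agtr1a and Agt, and the other neighbours overlapped.

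**Figure D3:**
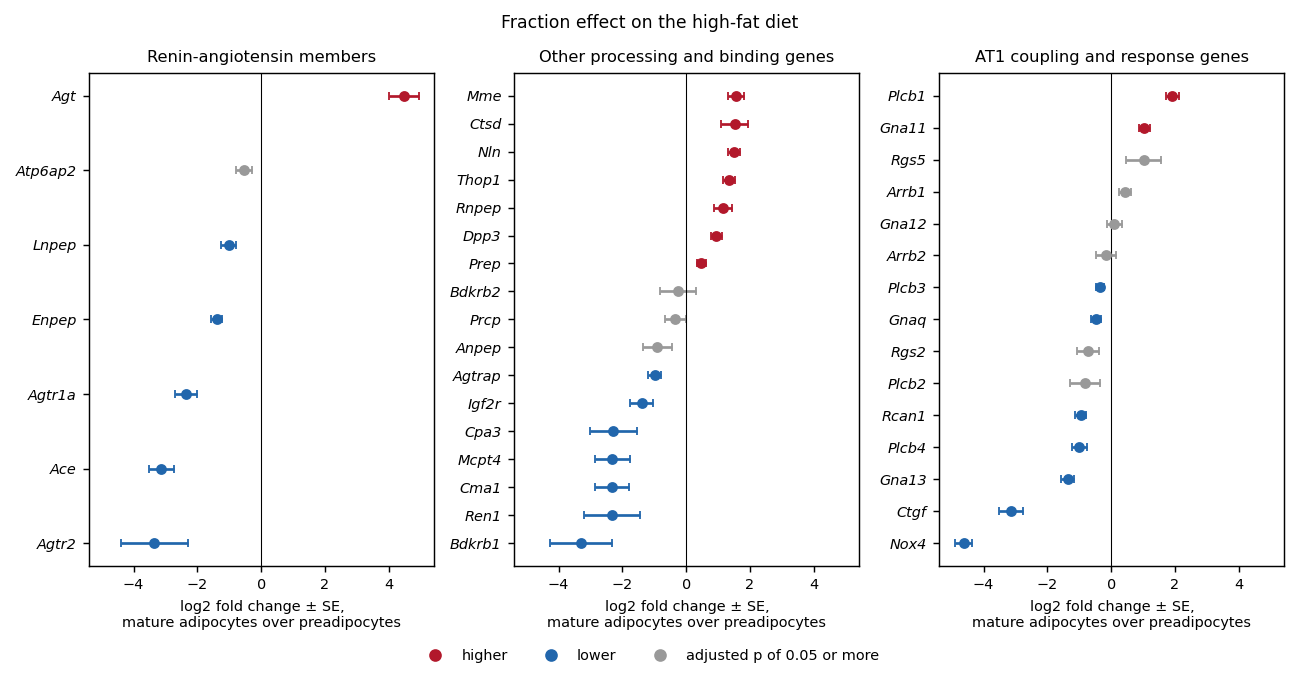
Log2 fold change of mature adipocytes over preadipocytes on the high-fat diet (horizontal axis, ± SE from edgeR's quasi-likelihood F) for the 7 tested members, 17 of the 18 other tested genes of angiotensin processing and binding, and 15 of the 16 genes of AT1 coupling and response; red and blue mark higher and lower calls and grey an adjusted p of 0.05 or more. Among the members, Agt lies to the right at 4.48, and Agtr2 and Ace lie farthest to the left at -3.35 and -3.13. Agtr2 had 0 counts in all 3 control adipocyte libraries, and its log2 fold change was -1.33 in the stress libraries alone. Klk1 is left out because it had no counts in mature adipocytes.

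Genes around the members were split in direction. Of 21 other genes that make, cut or bind angiotensins, 18 could be tested, and 7 were higher and 8 lower in mature adipocytes, where 26.4% of all genes were higher and 35% lower. Their median log2 fold change was -0.62, against -0.25 over all genes. The higher ones led with peptidases: neprilysin (Mme) at 1.56, cathepsin D (Ctsd) at 1.52, neurolysin (Nln) at 1.5, thimet oligopeptidase (Thop1) at 1.34 and aminopeptidase B (Rnpep) at 1.16 on the log2 scale, with adjusted p-values between 1.27e-05 and 0.00687 in edgeR's quasi-likelihood test. Mme ran from 6.04 to 12.0 FPKM in mature adipocytes and from 1.38 to 4.63 FPKM in high-fat preadipocytes. Renin itself (Ren1) had counts in 2 of 6 adipocyte libraries, at most 14, and 7 to 25 counts in the high-fat preadipocyte libraries. It was lower in mature adipocytes at a fitted -2.33 ± 0.87 (SE), with an adjusted p of 0.0308 in edgeR's quasi-likelihood test. In controls, where all adipocyte libraries had 0, it came out 11.5-fold lower at a floor of 3 counts for the group. The control adipocyte group holds both low-complexity libraries, so this factor is not a firm lower bound.

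The chymases Cma1 and Mcpt4, mast cell enzymes that can form angiotensin II without Ace, were lower in mature adipocytes at -2.33 and -2.32 on the log2 scale, with adjusted p-values of 0.00184 and 0.00189. They are also mast cell markers, and 5 of the 7 tested mast cell markers, Hdc and Tpsb2 among them, were lower in mature adipocytes. The mast cell list summed to 4.93 to 19.4 FPKM in mature adipocytes and 8.28 to 126.5 FPKM in high-fat preadipocytes. Tissue kallikrein (Klk1) had 0 counts in all 6 adipocyte libraries and 7 to 27 counts in the high-fat preadipocyte libraries. With a floor of 3 counts for the group, Klk1 came out 35.4-fold lower in mature adipocytes. Over the stress libraries alone, which include no low-complexity library, the factor was 16.0. The bradykinin receptor Bdkrb1 was lower at -3.31 ± 0.97 (SE), with an adjusted p of 0.00843 in edgeR's quasi-likelihood test.

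Of 16 genes that couple to the AT1 receptor or are known to respond to angiotensin II, 2 were higher and 7 lower in mature adipocytes, in the fit where 26.4% of all genes were higher and 35% lower. Their median log2 fold change was -0.41, against -0.25 over all genes. Plcb1, a phospholipase C, was higher by 1.92 and Gna11, a G protein subunit that couples AT1 to it, by 1.04. The lower ones led with Nox4 at -4.63, an NADPH oxidase, and Ctgf at -3.15, a matrix growth factor, followed by Gna13 at -1.36, Plcb4 at -1.0 and Rcan1 at -0.95. These 7 named genes had adjusted p-values between 1.44e-08 and 0.0019 in edgeR's quasi-likelihood test. Nox4 was at 0.0819 to 0.158 FPKM in mature adipocytes and at 1.86 to 4.0 FPKM in high-fat preadipocytes.

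Early life stress changed no member past the threshold in high-fat preadipocytes. None of the 7 tested members was called, in a fit where 0% of 17129 genes were called by edgeR's quasi-likelihood test (496 at an unadjusted p below 0.05, 4 called by DESeq2), and all 7 overlapped in range, while 2.92% of genes did not overlap, 1.66% higher and 1.26% lower in stress. Agtr2 showed the widest difference. It averaged 0.370 ± 0.270 FPKM in stress (SD, n = 4) and 1.24 ± 0.726 FPKM in control preadipocytes (SD, n = 3), with stress libraries at 0.222, 0.774, 0.212 and 0.273 FPKM and control libraries at 0.547, 1.47, 0.295 and 1.82 FPKM. Stress library 2 lay inside the control range and the other 3 below it. The log2 fold change of Agtr2 was -1.75 ± 0.62 (SE), with an unadjusted p of 0.0226 and an adjusted p of 0.973 in edgeR's quasi-likelihood test.

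The other members had values nearer to 0 in preadipocytes. Agt averaged 2.21 ± 0.528 FPKM in stress (SD, n = 4) and 3.20 ± 2.37 FPKM in control libraries (SD, n = 3), a log2 fold change of -0.53 with a 95% interval of -1.72 to 0.66. Ace averaged 58.7 ± 23.4 FPKM in stress and 45.6 ± 4.14 FPKM in control libraries (SD, n = 4 and 3), a log2 fold change of 0.34 (-0.25 to 0.93), where stress library 2 alone stood far above the rest. The intervals were -0.94 to 0.49 for Agtr1a, -0.27 to 0.69 for Enpep, -0.34 to 0.41 for Lnpep and -0.18 to 0.67 for Atp6ap2 on the log2 scale. These intervals do not show that the levels were alike.

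Markers of other cells varied among these libraries too, with none called. For stress over control, the median log2 fold change was 0.78 for the macrophage list, -1.16 for the endothelial, -1.10 for the mesothelial, -1.05 for the B cell and -0.88 for the erythroid list. Summed macrophage markers were 950 to 5089 FPKM in stress and 1008 to 2821 FPKM in control high-fat preadipocytes. Summed endothelial markers were 50.9 to 121 FPKM in stress and 101 to 246 FPKM in control high-fat preadipocytes, and summed mesothelial markers 37.6 to 234 FPKM in stress and 65.9 to 618 FPKM in control. Their part in the members' values was not tested.

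In mature adipocytes, stress changed none of 6 tested members past the threshold either, with 0% of 14485 genes called by edgeR's quasi-likelihood test (417 at an unadjusted p below 0.05, 9 called by DESeq2). Among these 6, Lnpep alone had ranges that did not overlap, higher in stress, against 6.7% of genes, 3.22% higher and 3.48% lower. Agtr2 was too low to test there, so that share does not cover it. It had 3, 4 and 19 counts in stress and 0 counts in all 3 control libraries, which include both low-complexity libraries. The counts of 3 and 4 are at or near the floor of 3 counts that a 0 allows. Lnpep averaged 9.84 ± 0.528 FPKM in stress and 5.70 ± 2.84 FPKM in control adipocytes (SD, n = 3 each), a log2 fold change of 0.80 (95% interval -0.09 to 1.68). The low control values were those of the low-complexity libraries. Without both, which leaves 1 control library, the log2 fold change of Lnpep was 0.08. Agtr1a averaged 2.84 ± 1.23 FPKM in stress and 1.46 ± 0.715 FPKM in control adipocytes (SD, n = 3 each), a log2 fold change of 0.97 (-0.27 to 2.21), which was 0.28 without both.

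Agt averaged 45.4 ± 27.4 FPKM in stress and 77.5 ± 50.9 FPKM in control adipocytes (SD, n = 3 each), with a log2 fold change of -0.73 (-2.08 to 0.62). The low-complexity libraries held the highest Agt values, 100.9 and 112.5 FPKM. Without both, which leaves 1 control library, at 19.0 FPKM, the log2 fold change of Agt was 1.18. Its direction therefore depended on which control libraries were kept, and the cause was not tested. Ace, Enpep and Atp6ap2 had log2 fold changes of -0.54, 0.41 and 0.43, and that of Atp6ap2 was -0.26 without the low-complexity libraries. Summed adipocyte markers were 11846, 24308 and 8332 FPKM in stress adipocyte libraries 1 to 3. In control adipocyte libraries 1 to 3 they were 29327, 7751 and 23141 FPKM. The list median for stress over control was -0.30 on the log2 scale, with no marker of the list called. Their part in the members' values was not tested.

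Whether the stress effect differed between the fractions was tested as an interaction. It was called for none of 7 members and for 0% of 17948 genes by edgeR's quasi-likelihood test (873 at an unadjusted p below 0.05, 3 called by DESeq2). Agtr2 had the smallest p among the members, 0.000842 unadjusted and 0.934 adjusted, and no size is given because all control adipocyte libraries were at 0. Agtr1a followed with a difference of 1.2 ± 0.61 (SE) on the log2 scale and an adjusted p of 0.934.

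**Figure D4:**
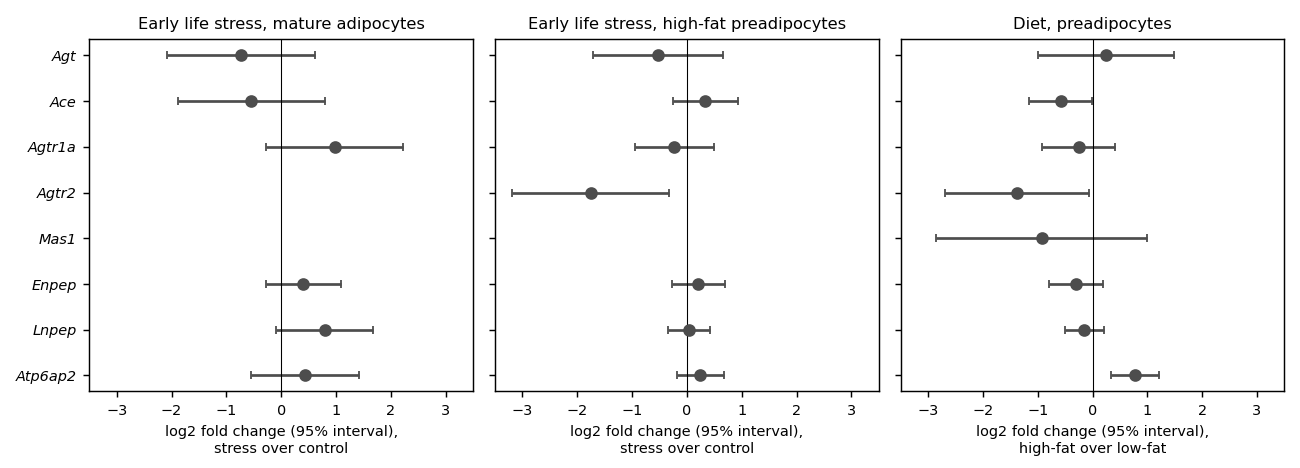
Log2 fold changes (horizontal axis, points) with 95% intervals (bars) of the members tested for stress over control in mature adipocytes and in high-fat preadipocytes, and for high-fat over low-fat diet in preadipocytes; a member without a point was not tested there. No member passed the threshold; Agtr2 lies lowest for stress in preadipocytes, at -1.75, and Atp6ap2 highest for diet, at 0.78.

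Diet was compared in preadipocytes only, and 1 stress and 1 control library made up the low-fat side. None of 8 tested members was called, with 0% of 18468 genes called by edgeR's quasi-likelihood test (2360 at an unadjusted p below 0.05, 422 called by DESeq2). Atp6ap2 had the smallest unadjusted p of the members, 0.00329. It stood at 42.5, 44.6, 49.3 and 56.4 FPKM in stress and 47.5, 41.3, 46.2 and 33.7 FPKM in control high-fat libraries, against 26.0 FPKM in the stress and 26.4 FPKM in the control low-fat library. Both low-fat libraries lay below all 8 high-fat libraries, while 16.1% of genes had ranges that did not overlap, 6.97% higher and 9.15% lower on the high-fat diet. The log2 fold change was 0.78 ± 0.20 (SE), with an adjusted p of 0.320 in edgeR's test and 0.0190 in DESeq2, where it was the only member called.

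Ace and Agtr2 had negative values for high-fat over low-fat diet that did not pass the adjusted threshold. Ace was at 72.9 FPKM in the stress and 82.3 FPKM in the control low-fat library, above all high-fat libraries except stress library 2 at 91.6 FPKM, and had a log2 fold change of -0.58 (95% interval -1.16 to -0.0069, adjusted p of 0.387 in edgeR's test). Agtr2 was at 1.34 and 2.08 FPKM in the stress and control low-fat libraries, within and above the high-fat range of 0.212 to 1.82 FPKM, with a log2 fold change of -1.38 (-2.69 to -0.063, adjusted p of 0.378 in edgeR's test).

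For the remaining members the low-fat libraries lay within the high-fat range or just outside it. Agt was at 2.57 FPKM in the stress and 1.77 FPKM in the control low-fat library, both inside the high-fat range of 0.865 to 5.73 FPKM, with a fitted change of 0.25 on the log2 scale. Agtr1a was at 12.6 and 13.9 FPKM in the stress and control low-fat libraries (fitted change -0.25), and Lnpep was at 17.6 FPKM in both (fitted change -0.15), all inside the high-fat ranges. Enpep was at 41.6 FPKM in the stress and 50.6 FPKM in the control low-fat library, and the control value lay above the highest high-fat library at 46.2 FPKM (fitted change -0.31). Mas1 had 21 and 13 counts in the stress and control low-fat libraries, against at most 18 counts in a high-fat library (fitted change -0.92).

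Markers of several cell types varied between the diets, with no marker called. Summed macrophage markers were 950 to 5089 FPKM in high-fat and 812 and 1010 FPKM in low-fat preadipocytes, overlapping ranges. Summed erythroid markers were 327 to 3114 FPKM in high-fat and 3534 and 5350 FPKM in low-fat preadipocytes. The list medians for high-fat over low-fat diet were 1.54 and -1.48 on the log2 scale. Those of the mesothelial, mature adipocyte and endothelial lists were 1.04, 0.77 and -0.71. Their part in the diet values of the members was not tested.

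The low-fat pair of libraries gave a further look at early life stress with 1 library a side and therefore no test. Agtr2 had 93 counts in the stress and 167 counts in the control library, a log2 ratio of -0.69 with a counting interval of -1.05 to -0.32. Agt had 101 and 81 counts in the stress and control libraries (0.45, 0.031 to 0.87), Enpep 4078 and 5757 (-0.35, -0.41 to -0.29) and Ace 8016 and 10531 (-0.25, -0.29 to -0.21). Agtr1a, Lnpep and Atp6ap2 had log2 ratios of -0.22, -0.073 and -0.092, and that of Mas1 was 0.74 (-0.26 to 1.74). Agtr2 and Agtr1a had the same sign as in high-fat preadipocytes, and Agt, Enpep, Ace, Lnpep and Atp6ap2 the opposite sign. Agtr1b had 0 counts in the stress and 3 counts in the control library, a log2 ratio of -1.19 (-4.46 to 2.07). No member with more than 3 counts in both libraries reached a 2-fold difference. Of 15000 genes with 1 CPM or more in either library, a different filter, 7.25% did. These intervals cover counting error alone and say nothing of the spread between animals.

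The 2 wider lists had no called gene for stress, its interaction with fraction, or diet, by edgeR's quasi-likelihood test. Among the genes of smallest p were Bdkrb1 at -1.12 and Mme at 0.67, with Ctgf at 0.39, for stress in preadipocytes (adjusted p of 0.973 for each). For stress in mature adipocytes they were Cma1 at -1.14 and Mcpt4 at -0.48, with Arrb1 at -0.57 and Rcan1 at -0.53 (adjusted p of 1.0 for each). For the interaction they were Ren1 and Bdkrb1, which had libraries at 0, with Plcb1 at 0.80 and Arrb1 at -0.69 (adjusted p of 0.934 for each). For diet they were Ctsd at 1.78 and Ren1 at -1.07, with Plcb3 at -0.25 (adjusted p of 0.378, 0.399 and 0.395).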

How the data were processed

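The authors deposited raw read counts and FPKM values (fragment counts scaled by gene length and library size) for 54532 Ensembl genes in 16 bulk libraries. The deposited FPKM equalled that scaling of the deposited counts times 1 factor per library, between 0.860 and 1.26. STAR 2.6.1d, DESeq2 1.20.0, edgeR 3.24.3 and the builds mm10 and GRCm38 are named per the submitters' processing notes. Which program counted reads, on which strand and annotation release, was not given in the sources used here. Coordinates are those of the deposited tables.

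Counts were tested in R 4.3.3 by edgeR's robust quasi-likelihood F test (version 4.0.16; filterByExpr, TMM, Benjamini-Hochberg adjustment over all genes tested, threshold 0.05), with control high-fat preadipocyte libraries 1 and 3 summed. The fraction fit took high-fat samples and adjusted for early life treatment, the interaction the same libraries, each stress fit only its own fraction, and the diet fit all preadipocytes adjusted for treatment. An SE is the log2 fold change divided by the square root of F. Tests were checked on simulated counts, and no result of that check is given here. FPKM were used for levels. Low-fat ratios used CPM with a prior count of 2. Alternatives were DESeq2 1.42.0, limma 3.58.1 on log2(FPKM + 0.1) and log2(FPKM + 1), other size factors, filters and subsets of libraries.

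Members and lists were chosen with earlier results of these data known. Named are all members; of the 2 wider lists, up to 5 called genes per direction with the largest change or, with none called, the 2 of smallest p; and markers among the 3 of highest mean CPM of a list, beside Adipoq. Of the AT1 list, 1 gene counted in its totals is not reported here by name. Counting intervals and the floor of 3 counts cover counting error only.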

Additional observations from a re-analysis of the deposited data

Results flagged for a closer look

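In 2 of the 8 sets of 4 libraries that could be examined for an outlying library, 1 library stood apart from the others of its group; chance flags about 1 in 20 such sets. Agtr2 in stress high-fat preadipocyte library 2 was at 0.774 FPKM, while the other 3 stress libraries were between 0.212 and 0.273 FPKM; the gap was 0.893 of the group's range. Lnpep in stress high-fat preadipocyte library 4 was at 18.4 FPKM, with the others between 14.8 and 15.3 FPKM, a gap of 0.851 of the range.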

How the results depend on the processing

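For the fraction comparison, 5 to 7 members were called over 26 alternatives. Mas1, untested in the fit reported, was the seventh in 3 of them, by edgeR's quasi-likelihood test. These were the fit without a low-count filter (-2.73, adjusted p of 0.0338) and that with the low-fat libraries included (-2.73, 0.0240). The third was the replicate block, which kept the near-identical libraries apart (-3.64, 0.0258). Agtr2 was the one lost in the 2 alternatives with 5. The count of all genes called was 5998 in the control libraries alone, against 10231 in the high-fat libraries of both treatments. For stress in preadipocytes DESeq2 called 4 genes; for stress in mature adipocytes DESeq2 called 9 and the fit without a low-count filter 51; for the interaction DESeq2 called 3; for diet DESeq2 called 422, 1 of them a member, and the fits without a filter and by limma on log2(FPKM + 0.1) called 1 each. Leaving out 1 library at a time gave 0 to 9 genes for stress in mature adipocytes and 0 to 1 for diet. No member call of stress or the interaction appeared in any alternative.

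Without both low-complexity libraries the log2 fold change reversed for stress in mature adipocytes in Agt (1.18) and Atp6ap2 (-0.26), and the interaction in Agt (1.75), Atp6ap2 (-0.46) and Enpep (-0.065). Leaving out 1 library at a time, the values ran from -1.0 to 0.11 for Ace under stress in mature adipocytes, from -0.63 to 0.21 for Agt, -0.50 to 0.013 for Agtr1a and -0.063 to 0.12 for Lnpep under stress in preadipocytes, from -0.91 to 0.21 for Agt and -0.13 to 0.77 for Atp6ap2 in the interaction, and from -0.21 to 0.85 for Agt under diet. Leaving out both low-complexity libraries leaves 1 control adipocyte library, which is assumed to vary like the other groups. None of these passed the threshold with all libraries, and the cause of each reversal was not tested.

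Same-numbered stress and control libraries had correlated deviations of 0.16, 0.33, -0.064 and 0.18 in preadipocytes, the third pair holding a library of the near-identical pair. The other 9 pairs, in mature adipocytes or across fractions, had -0.25 to 0.14, and 4 of 8, 0 of 6, 2 of 6 and 3 of 6 libraries correlated best with their own number, so, with not every pair above 0.1, the numbers were not taken to pair the samples. The fits with the number as a replicate block kept the near-identical libraries apart, as 2 samples. For the fractions and the interaction they also left out library 4 of both high-fat preadipocyte groups. With the replicate block, 7 of 8 tested members and 10220 genes were called between fractions. For stress in preadipocytes 2 genes were called, and Agt became 0.066. In the interaction Enpep became -0.075. No paired analysis of diet was possible because the diet groups share 1 number. With 3 or 4 libraries a group, and 1 low-fat library per treatment, changes within the intervals given for each member are not excluded.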
